A study of Mus musculus with 16 samples.

Results

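The p38 and ERK5 mitogen-activated protein kinases and the enzymes on either side of them were examined in mouse hippocampus, the brain region of memory formation, at postnatal day 1 (P1) and day 30 (P30). The 8 genes are *Mapk14* (p38α), *Mapk11* (p38β), *Mapk12* (p38γ), *Mapk7* (ERK5), their activating kinases *Map2k3*, *Map2k6* and *Map2k5*, and *Mapkapk2*, a kinase that p38 switches on. All probes that carried one of these gene names, or an older name with the same gene number, were taken, which gave 14 probes of 25697 on the array and 8 genes of 17567. The genes were chosen by their role upstream of the MEF2 transcription factors and by measured values, since *Mapk14* was already known to shift in opposite directions with genotype at the 2 ages in these same samples.

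The 16 samples were total hippocampal RNA from WT mice and *Mef2c*-het mice, 4 of each genotype at each age, 1 array per mouse. The *Mef2c*-het mice carry 1 copy of *Mef2c* that lacks its exon 2 in every cell from conception, beside a normal copy, on the C57BL/6J background, and the labels call them KO. The labels name no treatment, sex, litter or chip.

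Mitogen-activated protein kinases are the last step of a relay in which a MAP3K phosphorylates a MAP2K and the MAP2K phosphorylates the MAPK. MKK3 and MKK6, the products of *Map2k3* and *Map2k6*, activate the p38 kinases, while MEK5, the product of *Map2k5*, activates ERK5. In neurons p38α and ERK5 phosphorylate the activation domain of MEF2 proteins, including MEF2C, and p38 also signals through MK2, the product of *Mapkapk2*, to stabilise mRNAs. These switches are set by phosphorylation, which an mRNA array does not measure.

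Signals are given as log2 of the bead intensity after quantile normalization of all 16 arrays, so a difference of 1 is a doubling of signal. They can be compared between mice for 1 probe, but not between probes. A probe counted as detected where the array software gave it a detection p below 0.05, and was tested where it was detected on at least 4 arrays. Of the 14 probes, 12 were tested, and each of the 8 genes had a tested probe. The untested ones were 1 of 3 *Mapk12* probes (ILMN_1248106, detected on 1 array) and 1 of 2 *Mapk7* probes (ILMN_1240175, detected on 0 arrays).

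Between 12638 and 14150 probes were detected per array, each read from a median of 36 to 39 beads. Arrays of the same age correlated at r = 0.985 to 0.997 and arrays of different ages at 0.921 to 0.944. Judged from *Xist* and Y-linked probes, all 8 P30 mice were male, whereas P1 held 3 males and 5 females, so sex moved with age. Within each age the arrays fell into a larger and a smaller cluster, the smaller with a higher background, made up of WT replicate 8 and *Mef2c*-het replicate 8 at P1 and of WT replicates 6 and 7 and *Mef2c*-het replicate 7 at P30. Results are given below with sex as a covariate, or without the smaller clusters, where that changed them. The sex term rests on the P1 mice alone, and 2 of the 3 P1 males were the arrays of the smaller cluster. The sex term therefore overlaps in part with the array cluster at P1. The 2 did not act alike as separate terms. Kinase probes called within each genotype became fewer with sex as a covariate, but not with the array cluster as a block. What lay behind a change with sex as a covariate was not tested. *Mef2c* itself, by its brightest probe (ILMN_2732465), lay between 9.39 and 9.61 in WT and 9.15 and 9.73 in *Mef2c*-het mice at P1, and between 9.62 and 9.80 in WT and 8.97 and 9.92 in *Mef2c*-het mice at P30. The genotypes overlapped at both ages, and since the files do not place the probes relative to exon 2, they do not check the labels.

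The first question was how these kinases changed as the hippocampus matured. *Mapk14* rose and *Mapkapk2* and *Map2k3* fell between P1 and P30, and the other kinases moved by less than 0.25 on the log2 scale. Over both genotypes, 7 of the 12 tested probes passed an adjusted p of 0.05 in limma, 1 higher and 6 lower at P30. Age changed most of the array: 68.5% of the 14777 tested probes passed, 31.8% higher and 36.7% lower. The share among the kinase probes was thus no higher than the background, and being called for age was nothing particular to them. Their median age difference was -0.12, beside -0.03 over all tested probes. The effect of age averaged over both genotypes does not depend on the genotype differences that drew attention to these genes.

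**Figure D1:**
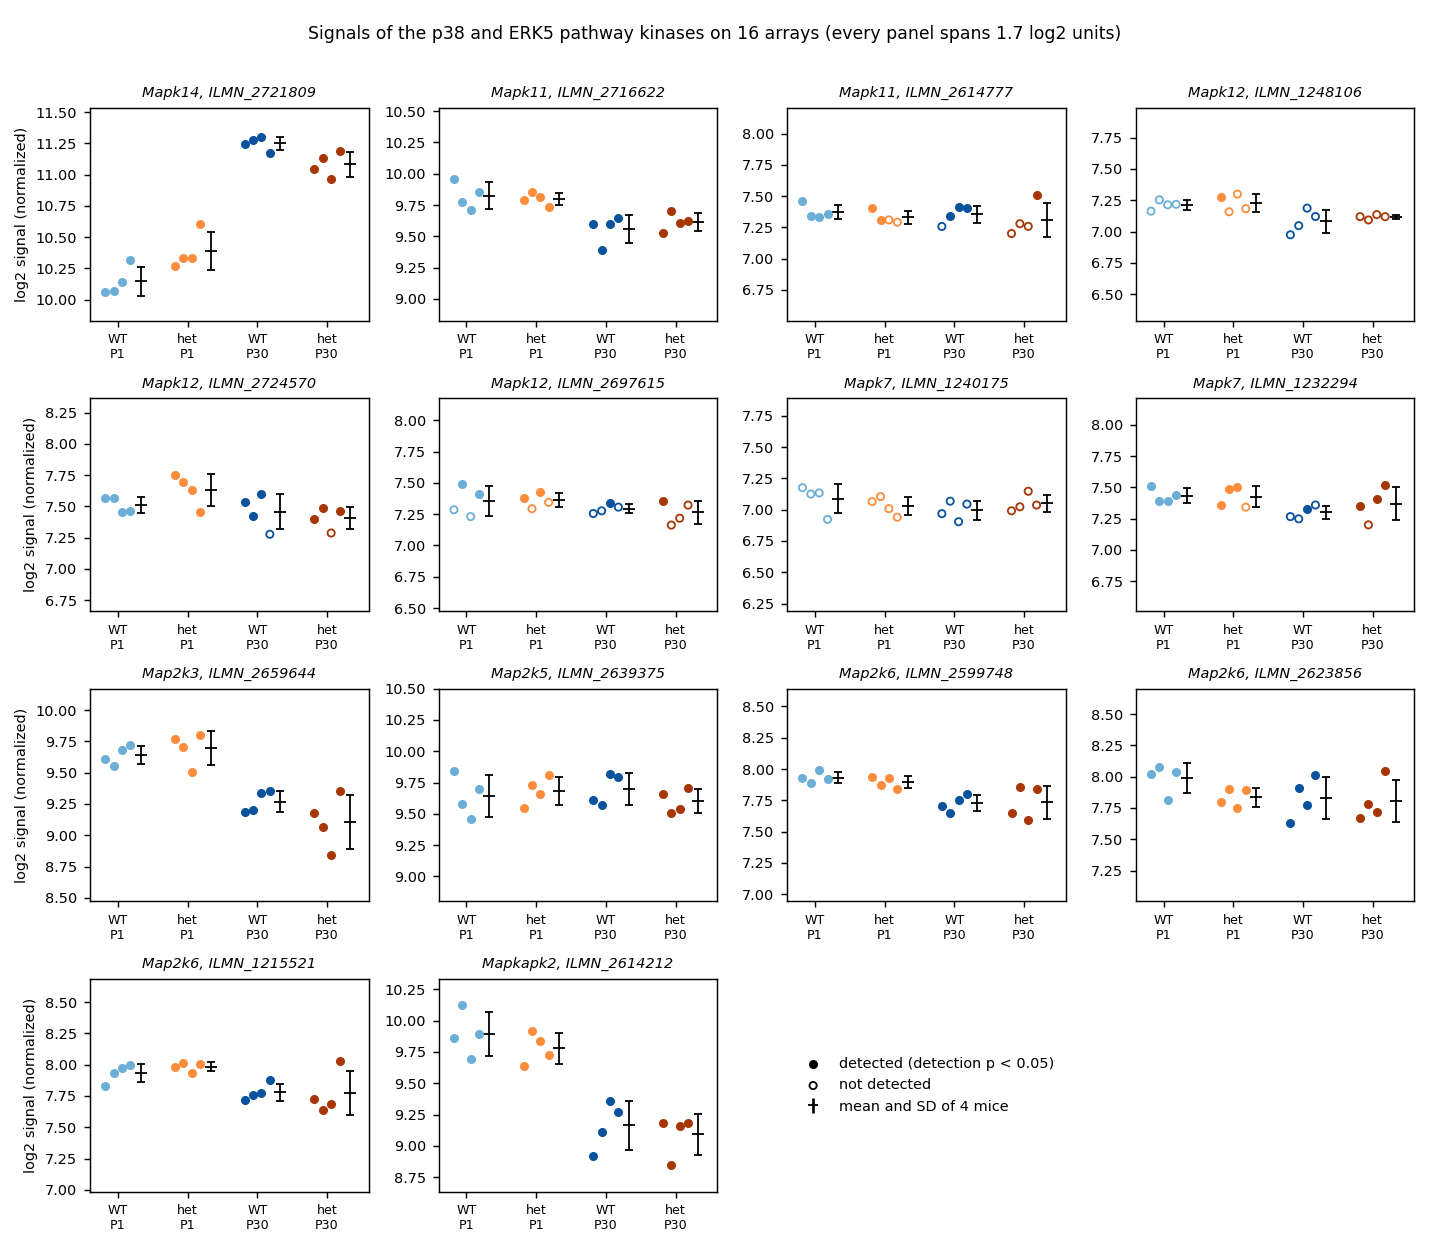
Normalized log2 signal of each of the 14 probes on each of the 16 arrays, by genotype and age, with filled points for detected probes, open points for undetected ones, and bars for the mean and SD of 4 mice. Every panel spans the same range of log2 units. *Mapk14* runs from 10.06 to 10.61 at P1 and from 10.96 to 11.30 at P30, *Mapkapk2* and *Map2k3* are lower at P30, and the *Mapk12* and *Mapk7* panels hold many undetected points.

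*Mapk14* encodes p38α, the main p38 kinase in most tissues. Its only probe (ILMN_2721809) was detected on all 16 arrays. In WT mice at P1 it read 10.06, 10.07, 10.14 and 10.32. In *Mef2c*-het mice at P1 it read 10.27, 10.33, 10.33 and 10.61. Both genotypes had their highest P1 value in replicate 8, the arrays of the smaller cluster. At P30 the WT mice read 11.25, 11.28, 11.30 and 11.17, and the *Mef2c*-het mice 11.04, 11.13, 10.96 and 11.19. Every P30 array lay above every P1 array, as it did for 20% of tested probes. Over the whole array the ages did not overlap for 42.1% of probes.

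*Mapk14* was 1.86-fold higher at P30 (log2 difference 0.90 ± 0.06 SE, n = 8 mice per age; adjusted p = 3.6e-10, limma). A rise of at least this size was seen in 7.61% of tested probes. With sex as a covariate the difference was 0.78 (adjusted p = 4.7e-08), and over all alternatives it ran from 0.78 to 0.98. In hippocampal tissue, a higher signal can reflect more cells that express the gene or more RNA in each cell, and the 2 cannot be told apart here.

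The genotype values of *Mapk14* are those for which it was chosen, and they are a description without a test. At P1 the *Mef2c*-het mean was 10.39 ± 0.15 (SD, n = 4) and the WT mean 10.15 ± 0.12, a difference of 0.24 ± 0.08 (SE). At P30 the *Mef2c*-het mean was 11.08 ± 0.10 and the WT mean 11.25 ± 0.06, a difference of -0.17 ± 0.08. From low to high the groups ran WT P1, *Mef2c*-het P1, *Mef2c*-het P30 and WT P30. The P1 groups overlapped each other, as did the P30 groups, and a gap separated the ages. The highest WT mouse at P1, at 10.32, lay within the *Mef2c*-het values, and the lowest WT mouse at P30, at 11.17, lay below the highest *Mef2c*-het mouse, at 11.19.

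The same values can be read the other way: from P1 to P30 *Mapk14* was 1.10 ± 0.08 higher in WT and 0.69 ± 0.08 higher in *Mef2c*-het mice, 2.15-fold and 1.62-fold. The difference between the 2 genotype shifts was -0.41 ± 0.11. Leaving out each array in turn kept the P1 shift between 0.17 and 0.30 and the P30 shift between -0.20 and -0.13. In the larger clusters alone the shifts were 0.22 and -0.22, and with sex as a covariate 0.19 and -0.17. The bead-to-bead standard error of this probe had a median of 3.61% of its signal, or 0.05 on the log2 scale, and mice of 1 group varied by a pooled SD of 0.11.

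Genotype differences had opposite signs at the 2 ages for 53% of tested probes, and for 617 probes, or 4.18%, both were also over 0.1 in size. In 28 probes (0.189%), *Mapk14* included, the signs were opposite and both differences were at least as large as those of *Mapk14* at the same age. It was chosen for these values, so its place among the probes is no test. By limma, 2 of all 14777 probes (0.0135%) passed an adjusted p of 0.05 for genotype at P1, 1 (0.00677%) at P30, and 0 for the difference between the ages. In that last comparison 438 of the 14777 had an unadjusted p below 0.05. This is a smaller share than such a limit passes where nothing differs. The groups did not overlap between genotypes for 1.42% of probes at P1 and 1.89% at P30, and *Mapk14* was not among them at either age.

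The genes with the profile most like that of *Mapk14* over the 16 arrays were *Adam23*, a neuronal adhesion protein, *Nkx2-2*, a transcription factor of the oligodendrocyte lineage, and *Plppr2*, a lipid phosphatase-related membrane protein. Likeness was the root mean square difference between log2 profiles, each centred on its own mean. It was 0.086 for *Adam23*, 0.091 for *Nkx2-2* and 0.094 for *Plppr2*, beside a root mean square of 0.471 for the *Mapk14* profile itself. All 3 were chosen for this likeness, so their similar age differences (0.86, 0.96 and 1.01) and genotype differences (0.18, 0.15 and 0.13 at P1, and -0.16, -0.15 and -0.18 at P30) follow from the choice.

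*Mapk11* encodes p38β, the p38 form that is enriched in brain. Its brighter probe (ILMN_2716622) ran from 9.71 to 9.96 in WT and from 9.73 to 9.85 in *Mef2c*-het mice at P1. At P30 the range was 9.39 to 9.65 in WT and 9.52 to 9.70 in *Mef2c*-het mice. All P30 arrays thus lay below all P1 arrays, as for 22.1% of tested probes. The fall was 0.22 ± 0.05 on the log2 scale, or 1.17-fold (adjusted p = 0.00060, limma). The second probe (ILMN_2614777) was dim, detected on 10 of 16 arrays, and its age difference of -0.02 ± 0.05 did not pass (adjusted p = 0.73). *Mapk11* therefore has 1 bright probe with a small fall and 1 probe close to background without one, and the p38α and p38β probes moved in opposite directions with age.

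*Mapk12*, which encodes p38γ, a form best known from muscle, was close to background. The best detected of its probes (ILMN_2724570, 14 of 16 arrays) ran from 7.45 to 7.75 at P1 and from 7.28 to 7.60 at P30, and the ages overlapped. Its age difference was -0.14 ± 0.06 (adjusted p = 0.036, limma). This call was lost with sex as a covariate (-0.08, adjusted p = 0.38) and when any 1 of 9 arrays was left out (adjusted p from 0.052 to 0.080). With normexp background correction, which stretches dim signals, the difference was -0.42. The other tested probe (ILMN_2697615), detected on 6 arrays, differed by -0.08 ± 0.05 (adjusted p = 0.14). In the RefSeq gene table *Mapk11* and *Mapk12* are direct neighbours on chromosome 15.

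Of the kinases that activate p38, *Map2k3* (MKK3) showed the larger change. It read 9.61, 9.55, 9.68 and 9.72 in WT and 9.77, 9.71, 9.50 and 9.80 in *Mef2c*-het mice at P1. At P30 it read 9.18, 9.21, 9.34 and 9.35 in WT and 9.17, 9.06, 8.84 and 9.35 in *Mef2c*-het mice. Each P30 array was below each P1 array. *Map2k3* fell by 0.48 ± 0.07 on the log2 scale, or 1.39-fold (adjusted p = 7.1e-06, limma), and a fall as large was seen in 17.8% of tested probes. The fall was 0.37 ± 0.09 in WT and 0.59 ± 0.09 in *Mef2c*-het mice. The *Mef2c*-het mice at P30 spread most, with an SD of 0.21 against 0.07 to 0.13 in the other groups.

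*Map2k6* (MKK6), the second activator of p38, had 3 probes, all detected on all 16 arrays. Probe ILMN_1215521 ran from 7.83 to 8.01 at P1 and from 7.64 to 8.03 at P30. Probe ILMN_2599748 ran from 7.84 to 7.99 at P1 and from 7.59 to 7.85 at P30. In both, the highest P30 arrays reached into the P1 range. The fall was 0.18 ± 0.05 for both (adjusted p = 0.0057 and 0.0018, limma). The third (ILMN_2623856) differed by -0.09 ± 0.07 and did not pass (adjusted p = 0.23). With sex as a covariate ILMN_2599748 no longer passed (-0.15, adjusted p = 0.051), and with normexp background correction both falls were larger, at -0.40 and -0.39 for ILMN_2599748 and ILMN_1215521. Both activators of p38 thus had probes that fell by P30, whereas the p38α probe rose.

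The ERK5 branch showed no age difference that passed. *Map2k5* (MEK5) ran from 9.46 to 9.84 at P1 and from 9.51 to 9.82 at P30, nearly the same range. Its age difference was -0.01 ± 0.06, with a 95% interval of -0.15 to 0.12 (adjusted p = 0.86, limma). *Mapk7* (ERK5) was dim, and its tested probe (ILMN_1232294) was detected on 7 of 8 arrays at P1 and 4 of 8 at P30. It ran from 7.34 to 7.51 at P1 and from 7.20 to 7.52 at P30. The difference was -0.09 ± 0.05 (95% interval -0.19 to 0.01, adjusted p = 0.097). It passed when *Mef2c*-het P30 replicate 7, the mouse at 7.52, was left out (-0.12, adjusted p = 0.031), and in the larger clusters alone (-0.15, adjusted p = 0.028). With normexp background correction it was -0.32 (adjusted p = 0.053).

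*Mapkapk2* (MK2), the kinase downstream of p38, fell. In WT mice it read 9.86, 10.12, 9.70 and 9.89 at P1 and 8.92, 9.11, 9.36 and 9.27 at P30. In *Mef2c*-het mice it read 9.64, 9.92, 9.84 and 9.73 at P1 and 9.18, 8.84, 9.16 and 9.18 at P30. No P30 array reached the P1 range. The fall was 0.71 ± 0.08 on the log2 scale, or 1.63-fold (adjusted p = 4.8e-07, limma), and 10.4% of tested probes fell as far. The size was close in both genotypes, 0.73 ± 0.11 in WT and 0.69 ± 0.11 in *Mef2c*-het mice. The genes with the most similar profile were *Ppie*, a peptidyl-prolyl isomerase of the spliceosome, *Rnf114*, a ubiquitin ligase, and *Ing4*, a chromatin reader, with root mean square differences of 0.0855, 0.0981 and 0.0998 beside 0.385 for the *Mapkapk2* profile itself.

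**Figure D2:**
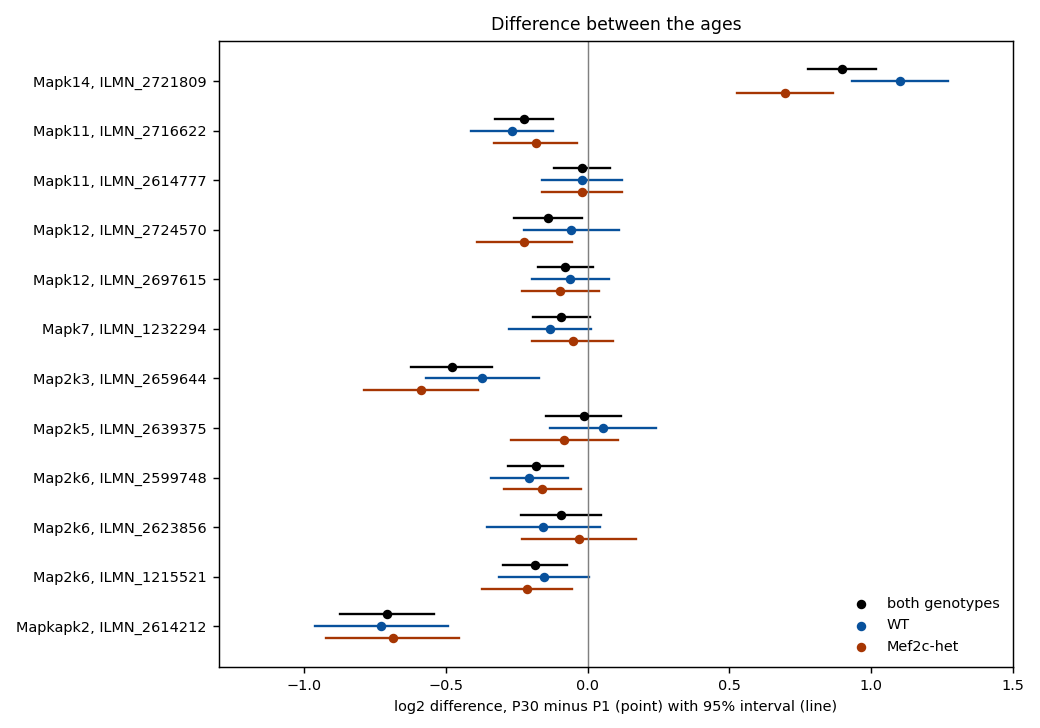
Log2 difference between P30 and P1 for each of the 12 tested probes, as the mean of both genotypes (black), in WT (blue) and in *Mef2c*-het mice (red), with lines for the 95% interval. *Mapk14* lies to the right of 0, *Mapkapk2* and *Map2k3* lie to the left, and the other probes lie within 0.3 of 0.

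Within WT mice 5 of the 12 probes passed for age (1 higher, 4 lower), beside 59.7% of all tested probes (28% higher, 31.7% lower). Within *Mef2c*-het mice 7 of 12 passed (1 higher, 6 lower), beside 58.3% (26.9% higher, 31.4% lower). Both shares were close to or below the background. Unlike the mean over both genotypes, age within 1 genotype is not independent of the genotype differences for which *Mapk14* was chosen. The WT calls were *Mapk14*, *Mapkapk2*, *Map2k3*, *Mapk11* (ILMN_2716622) and *Map2k6* (ILMN_2599748). The *Mef2c*-het calls held the same 5 probes plus *Mapk12* (ILMN_2724570) and *Map2k6* (ILMN_1215521). Of the probes that passed in 1 genotype alone, *Mapk12* differed by -0.06 in WT and -0.22 in *Mef2c*-het mice and *Map2k6* (ILMN_1215521) by -0.15 and -0.21. These differences between the genotypes were not tested, because the genes were chosen with the genotype values known. With sex as a covariate both counts dropped to 4. With the array cluster as a block both were 7, and *Map2k6* passed in WT too by ILMN_1215521 (-0.19, adjusted p = 0.017) and ILMN_2623856 (-0.19, adjusted p = 0.048).

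The genotype differences of the other 7 genes were small, though some exceeded their standard errors. That of *Map2k3* at P30 (-0.16) was close in size to that of *Mapk14* (-0.17). At P1 they ran from -0.15 (*Map2k6*, ILMN_2623856) to 0.12 (*Mapk12*, ILMN_2724570) over the 11 probes, with standard errors of 0.06 to 0.11. At P30 they ran from -0.16 (*Map2k3*) to 0.07 (*Mapk7*). WT and *Mef2c*-het values overlapped for each of these probes at both ages. The sign differed between the ages for 8 of these 11 probes, beside 53% of all tested probes. Several of the 11 probes share a gene, and some of the differences were near 0. Among the 8 were *Map2k3*, with 0.06 ± 0.09 at P1 and -0.16 ± 0.09 at P30, and *Mapk12* (ILMN_2724570), with 0.12 ± 0.08 and -0.05 ± 0.08.

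**Figure D3:**
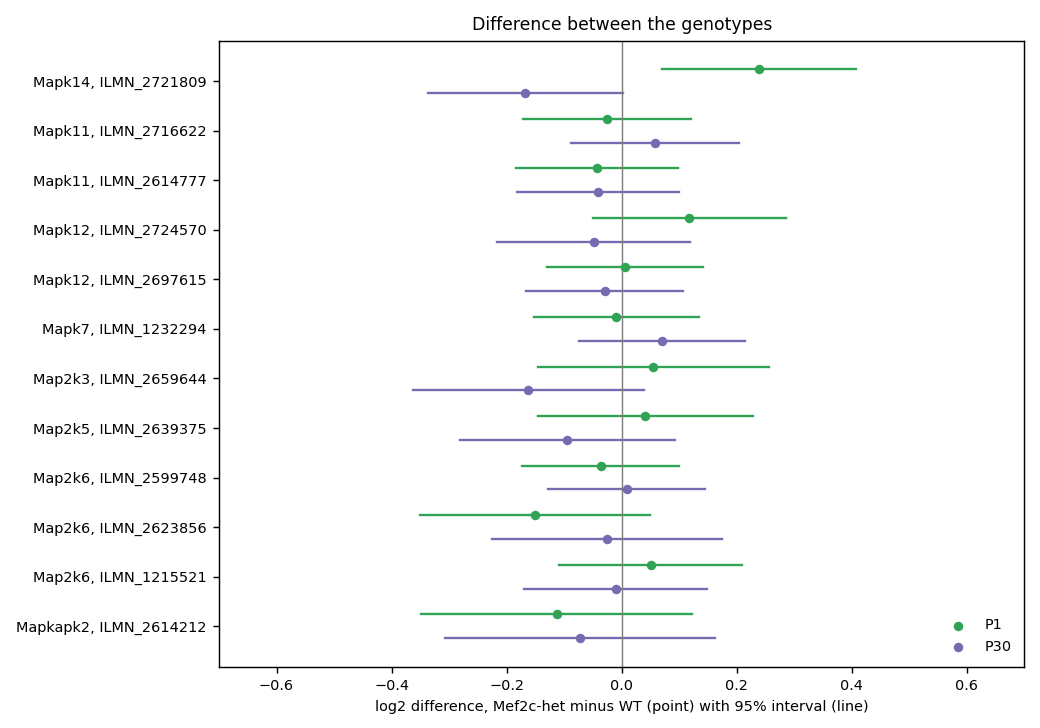
Log2 difference between *Mef2c*-het and WT mice for each of the 12 tested probes at P1 (green) and P30 (purple), with lines for the 95% interval, shown as a description since the genes were chosen with these values known. The *Mapk14* points lie at 0.24 and -0.17, and the points of the other genes lie between -0.16 and 0.12.

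The sequence just upstream of the start was looked at for the 3 genes that moved most with age, *Mapk14*, *Map2k3* and *Mapkapk2*. Promoters were the 250 bases before each RefSeq start (GRCm38.p6), and motifs were searched on both strands. The lines give the 5′ to 3′ sequence on the strand of the gene, with GC boxes (GGGCGG, or CCGCCC on the other strand) in capitals. They are shown so that the start of the gene that rose can be set beside those of the 2 genes that fell. *Mapk14* has 2 listed starts, of which the upstream one is shown.
*Mapk14* (chr17:28691092-28691341, plus strand): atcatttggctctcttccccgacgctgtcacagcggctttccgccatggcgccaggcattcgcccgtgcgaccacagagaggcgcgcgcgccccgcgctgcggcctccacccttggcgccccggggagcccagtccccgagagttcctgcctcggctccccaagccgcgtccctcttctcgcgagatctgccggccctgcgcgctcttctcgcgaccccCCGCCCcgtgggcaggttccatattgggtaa
*Map2k3* (chr11:60931804-60932053, plus strand): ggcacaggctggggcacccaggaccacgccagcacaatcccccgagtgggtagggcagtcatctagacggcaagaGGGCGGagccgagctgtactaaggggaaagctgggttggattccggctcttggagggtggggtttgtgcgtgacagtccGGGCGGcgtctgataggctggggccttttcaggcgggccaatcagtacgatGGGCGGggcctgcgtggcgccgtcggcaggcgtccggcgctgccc
*Mapkapk2* (chr1:131097844-131098093, minus strand): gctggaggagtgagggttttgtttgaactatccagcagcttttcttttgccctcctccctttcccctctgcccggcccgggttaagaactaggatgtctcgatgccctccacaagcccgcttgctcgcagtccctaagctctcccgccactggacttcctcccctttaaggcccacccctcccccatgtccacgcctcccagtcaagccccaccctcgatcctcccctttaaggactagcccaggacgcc

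The *Mapk14* window shown held 70.4% G and C and 30 CG dinucleotides, while that of its second start held 48.4% and 14, with 0 GC boxes. The *Map2k3* window held 67.6% and 20, and the *Mapkapk2* window 60.4% and 9. The median over all 32851 promoters was 52.4% and 6. A GC box, the binding motif of SP1-type factors, was present once in the *Mapk14* window shown, 3 times in that of *Map2k3* and in none of the *Mapkapk2* letters, and in 32.7% of all promoters. Over the 12 promoters of the 8 genes, 8 held a GC box. These 8 count both *Mapk7* windows, which overlap almost fully and hold the same GC boxes. The MEF2 site (1.69% of all promoters), the cyclic AMP element TGACGTCA (1.55%) and the AP-1 site TGACTCA (4.46%) were in 0 of the 12. These are matches of letters in a short window and say nothing of what binds there.

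Other genes of the p38 and ERK5 relays and of other MAPK relays were looked at as 5 lists. Of 79 listed genes 65 were tested, by 1 probe each, and 47 (72.3%) passed for age, 31 higher and 16 lower at P30. Over all 10803 tested genes 70.4% passed. The lists thus changed with age about as often as genes at large.

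Among MAP3Ks and adaptor proteins, which feed the relay, 9 of 17 rose, 3 fell and 5 did not pass (median 0.19). *Gadd45b*, a stress-induced activator of the p38 pathway, rose by 0.86 ± 0.06 (adjusted p = 5.7e-10, limma). The scaffolds *Sqstm1* (p62) and *Mapk8ip2* (JIP2) rose by 0.73 and 0.66. *Map3k1* fell by 0.65 ± 0.05 (adjusted p = 1.2e-08), *Tab1*, which binds p38α and TAK1, fell by 0.45, and *Map3k6* (ASK2) fell by 0.28.

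Of the other MAP2Ks and MAPKs, all 13 tested genes passed, 9 higher and 4 lower (median 0.42). *Mapk10* (JNK3, the neuronal JNK) rose by 1.07 ± 0.10 (adjusted p = 5.5e-08, limma). *Map2k1* (MEK1) rose by 1.13 ± 0.27, with P30 arrays scattered from 7.54 to 9.64. *Mapk6* (ERK3) fell from 10.88 to 9.21 in mean log2 signal, 3.19-fold (adjusted p = 4.7e-13), and *Map2k2* (MEK2) fell by 0.48. *Mapk15* (ERK8) was detected on all 8 arrays at P1 and on 0 at P30, which makes it at least 1.12-fold lower when set against the dimmest detected probe of each P30 array.

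The other kinases below p38 or ERK5 split, with 4 higher and 3 lower of 7 tested (median 0.15). *Sgk1*, a growth factor and glucocorticoid responsive kinase, rose by 1.38 ± 0.08 (adjusted p = 1.7e-10, limma). The MSK kinases, nuclear targets of p38, moved in opposite directions, as *Rps6ka4* (MSK2) rose by 0.92 ± 0.07 and *Rps6ka5* (MSK1) fell by 0.71 ± 0.06. The MNK kinases did too, as *Mknk1* rose by 0.28 and *Mknk2* fell by 0.47. *Prkab1*, a regulatory subunit of the AMP-activated kinase and itself no kinase, fell by 0.96 ± 0.06.

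MAPK phosphatases switch MAPKs off, and those listed are not all specific to p38 or ERK5. Of 13 tested, 5 rose, 3 fell and 5 did not pass, with a median of 0.00. *Dusp7* rose by 1.22 ± 0.07 and *Dusp6* by 0.49 ± 0.06. *Dusp8*, which acts on JNK and p38, rose by 0.42 ± 0.13 (adjusted p = 0.0091, limma). *Dusp2* fell by 0.93 ± 0.05 and was detected on 1 of the 8 P30 arrays, *Dusp4* fell by 0.63 and *Ppm1d* (WIP1) by 0.54.

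The last list held transcription factors that p38 or ERK5 phosphorylate and immediate early genes downstream of them. It also held related factors, such as *Mef2b*, that are not all known substrates. Of 15 tested, 4 rose, 3 fell and 8 did not pass (median 0.07). *Fos* rose by 1.31 ± 0.21, *Jun* by 1.00 ± 0.07 and *Ddit3* (CHOP) by 0.75 ± 0.07. *Usf1* fell by 0.53, *Max* by 0.23 and *Mef2b* by 0.14, with *Mef2b* detected on 7 of 8 P1 arrays and 1 of 8 P30 arrays. Of the MEF2 factors, *Mef2a* rose by 0.20 ± 0.06 (ILMN_1251160, adjusted p = 0.0096) and by 0.25 ± 0.05 with its second tested probe (ILMN_1248647, adjusted p = 0.00019). *Mef2c* (ILMN_2732465, 0.07 ± 0.12, adjusted p = 0.61, limma) and *Mef2d* (-0.01 ± 0.05, adjusted p = 0.93) did not pass. Nor did the second tested *Mef2c* probe (ILMN_2887992, 0.15 ± 0.11, adjusted p = 0.25).

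**Figure D4:**
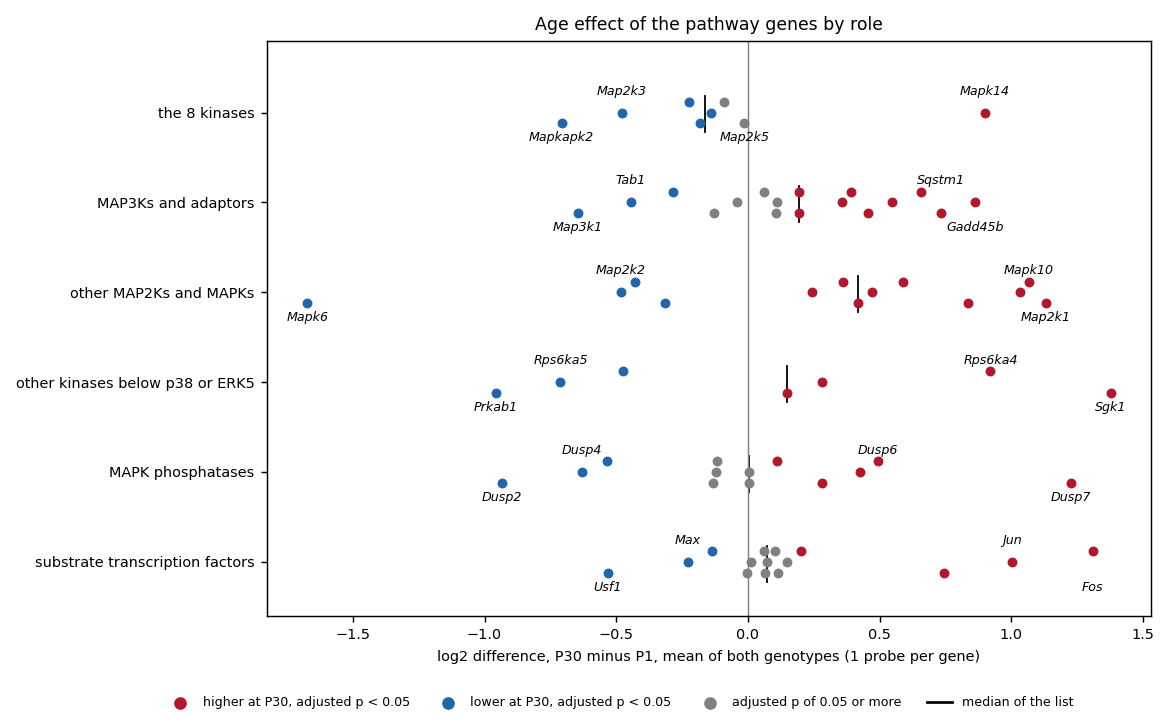
Log2 difference between P30 and P1, as the mean of both genotypes, for the 8 kinases and the 5 lists of pathway genes, 1 probe per gene, with red and blue points for genes that passed an adjusted p of 0.05 and grey points for those that did not. Black ticks give the list medians, and the largest movers are named. *Mapk14* is the only point of the 8 kinases to the right of 0, and the MAP2K and MAPK list has no grey points.

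The cell types of the tissue changed over the same interval, as marker genes showed. All 10 oligodendrocyte markers were higher at P30 (median log2 difference 4.52), and *Mobp* and *Mog* were detected on 0 of 8 P1 arrays. Of the astrocyte markers 8 of 9, and of the microglia markers 11 of 12, were higher, with 0 lower. Of the hippocampal neuron markers 7 were higher and 4 lower of 11 (median 2.20). All 9 markers of proliferating cells were lower (median -1.92). Endothelial markers split 3 higher and 4 lower of 7, choroid plexus markers 1 and 4 of 5, and of 4 blood genes 1 was lower and 3 did not pass.

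The summed signal of the oligodendrocyte markers, on the linear scale, ran from 7913 to 11150 at P1 and from 97750 to 117409 at P30. That of the proliferation markers ran from 6290 to 7694 at P1 and from 1850 to 2022 at P30. In neither case did the genotypes separate within an age. These markers moved with age together with *Mapk14*, *Map2k3* and *Mapkapk2*, and their part in the age differences of the kinases was not tested. The labels name no chip, so a batch that follows age cannot be told apart from age itself.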

How the data were processed

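Hippocampal RNA of 16 mice was hybridised to Illumina MouseRef-8 v2 beadchips. The deposited table gives, for each probe and array, a mean bead intensity on a linear scale, neither background-corrected nor normalized, with the number of beads, their standard error and a detection p-value from the array software, below 0.05 for a detected probe. The deposited bead counts and p-values served only as quality measures. Per the labels the submitters used lumi and limma, with no version given. The study's methods describe log2 transformation and quantile normalization, which was followed here on the deposited intensity over all 16 arrays.

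Probes detected on at least 4 arrays (14777) were fitted with limma 3.58.1 (lmFit, eBayes) in R 4.3.3, with the 4 groups as terms. Tests were two-sided, with Benjamini-Hochberg adjustment over all tested probes. Age was tested as the mean over both genotypes and within each. Genotype differences of the kinases are given without a p-value, and genotype calls only as counts over all tested probes. Intervals are 95%. The number of arrays limits the precision, and p-values measure the spread between mice.

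The kinases and all gene lists were chosen with earlier results of these data known. Genes named from the 5 lists were the 3 largest rises and 3 largest falls among those that passed, with *Mef2a*, *Mef2c* and *Mef2d* always given, and 1 gene that this rule names is not reported here. The 3 most alike genes were found for each kinase that passed with a difference of at least 0.5. Gene names were updated through RefSeq for 25376 of 25697 probes. Age effects were simulated over these 14777 probes, with 50 probes changed at each size and independent noise. Of probes changed by 1 on the log2 scale 96% were called, 90% at 0.5, 38% at 0.25 and 92% at -0.5. Of 14577 unchanged probes 10 were called. In the data 68.5% of probes passed for age, far more than were changed in the simulation. These rates therefore check the procedure and do not give the sensitivity or error rate of the calls reported.

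Alternatives were normexp background correction (offset 16), median scaling, cyclic loess, no filter, a stricter detection limit of 0.01, trend and robust variances, sex or array cluster as a term, 1 probe per gene, each age alone, the replicate number as a block, and leaving out each array. The larger array clusters alone were added after the data were seen. Probe and protein sequences were not used here.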

Additional observations from a re-analysis of the deposited data

Results flagged for a closer look

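*Mapkapk2* in *Mef2c*-het mice at P30 had 1 mouse far from the other 3. Replicate 5 read 8.84 on the log2 scale, and the nearest of the other mice read 9.16. This gap was 0.929 of the whole range of the group. Of the 48 groups of 4 mice examined, chance would give about 2.4 such gaps, and this was the only 1 found. The fall of *Mapkapk2* with age passed the adjusted p of 0.05 when this array was left out, as it did under each of the 26 alternatives, between -0.86 and -0.64.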

How the results depend on the processing

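The age differences of *Mapk14*, *Mapkapk2*, *Map2k3*, *Mapk11* (ILMN_2716622) and *Map2k6* (ILMN_1215521) kept their direction and passed under all 26 alternatives. For *Map2k6* (ILMN_2599748) sex as a covariate was the only one of 25 that ended the call. The number of kinase probes called was 5 to 8 for age (7 as reported) and 4 to 7 in WT (5 as reported). In *Mef2c*-het mice it was 7 as reported, 4 with sex as a covariate, and 3 to 7 when each array was left out, with 4 without P1 replicate 1, P1 replicate 2 or P30 replicate 3 and 3 without P30 replicate 6. The cause was not tested.

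The age differences that reversed had not passed in the comparison where they reversed, although *Mapk12* (ILMN_2724570) passed in others. *Map2k5* turned to 0.043 for age under cyclic loess and ran from -0.045 to 0.019 when each array was left out. In WT it turned to -0.061 with median scaling, -0.040 with sex as a covariate and -0.036 in the larger clusters alone, and ran from -0.0081 to 0.12 over the arrays left out. *Mapk11* (ILMN_2614777) turned, with sex as a covariate, to 0.0053 for age, 0.0094 in WT and 0.0012 in *Mef2c*-het mice, and ran from -0.040 to 0.012 in WT and from -0.084 to 0.018 in *Mef2c*-het mice over the arrays left out. *Mapk12* (ILMN_2724570) turned to 0.014 in WT with sex as a covariate and ran from -0.11 to 0.0034 over the arrays left out. In *Mef2c*-het mice *Map2k6* (ILMN_2623856) ran from -0.11 to 0.014 and *Mapk7* (ILMN_1232294) from -0.10 to 0.0038. Genotype differences of the kinases, given without a p-value, changed sign in some probes, such as *Mapkapk2* at P30 (-0.15 to 0.05). Normexp background correction moved 7 genotype values, all of dim probes.

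The replicate numbers gave no clear pairing of the mice. Of 6 pairs with the same number at an age, the deviations from the group means correlated at -0.522 to 0.82, and 4 pairs were above 0.1. Pairs with different numbers ran from -0.772 to 0.715, so whether the numbers mark pairs is not settled here. The pairs at 0.82 and 0.697 each lay within a smaller array cluster, and the pair at -0.522 spanned both clusters. With the replicate block the *Mapk14* shifts were 0.25 at P1 and -0.18 at P30. They rest on the 6 same-number pairs alone, since a mouse without a partner is absorbed by its own block. Probes called for genotype in limma went from 2 to 0 at P1 and from 1 to 0 at P30. Those with an unadjusted p below 0.05 went from 337 to 606 and from 420 to 1102. For age no paired analysis was possible because the ages of a genotype share no replicate number. Dim probes such as those of *Mapk12* and *Mapk7* are limited by their signal over background.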
